A study of Pisaster ochraceus with 50 samples.

Results

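The genes described here are the 150 genes most specific to the pyloric caecum, the digestive gland that fills the arms of a sea star, in the ochre sea star Pisaster ochraceus. They were selected on measured values. Counts were scaled to a common total of gene reads per library (CPM) and averaged per tissue over the asymptomatic libraries of Point Reyes. The 150 of 21777 genes with the highest log2 ratio of the pyloric caecum mean to the higher of the dermis and tube feet means were kept, with 1 CPM added to each mean. The difference between tissues in those libraries therefore made the list, and it is given below as a description with no test.

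RNA was sequenced from biopsies of wild animals collected in August at McClures Beach and Lifeboat House, and each library of a tissue came from a different animal. Pyloric caecum was taken from 2 symptomatic and 15 asymptomatic animals, dermis (body wall) from 2 symptomatic and 14 asymptomatic animals, and tube feet (the podia) from 2 symptomatic and 13 asymptomatic animals. Symptomatic animals were those labelled as showing wasting disease, in which sea stars get lesions, shed arms and break down. Animals were wild, with no genotype, strain, age or treatment given in the labels, which record a size class, a feeding status, a collection site, a colour and a numbered batch whose meaning they do not state. The symptomatic animals were M0D055233U (large, McClures Beach, batch 2) and M0D055236X (medium, Lifeboat House, batch 5), and neither was feeding. The 15 asymptomatic pyloric caecum libraries came from 3 small, 3 medium, 5 large and 4 x-large animals. Of these animals, 1 large (M0D055232T) and 1 x-large (M0D055231S) were feeding. A tube feet pair from 1 animal of Friday Harbor, 1 library per disease label, was kept out of the comparisons. Libraries held 373930 to 1105416 gene reads each, and the pyloric caecum libraries 721096 to 1105416.

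The pyloric caeca lie as paired glands in each arm and open into the pyloric stomach. In sea stars they secrete digestive enzymes, take up the products of digestion and store lipid and glycogen that later supply the gonads and the fasting animal. The deposited files name each gene by an ID with no symbol, protein or position, and the sources used here hold no table that pairs them. The roles of the 150 genes, their sequences and their places in the genome therefore cannot be given, tissue markers could not be checked by name, and at most a few IDs are named per comparison. In bulk tissue, fewer cells of a type and less RNA per cell cannot be told apart.

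The 150 genes were abundant. Their mean level in asymptomatic pyloric caecum ranged from 47.8 to 229839 CPM, with a median of 330 CPM. With 1 CPM added to each mean, a gene of low level cannot reach the ratio needed for selection, so part of this abundance follows from the rule. Of the 150, 129 averaged at least 100 CPM, 41 at least 1000 CPM and 7 at least 10000 CPM, whereas the whole table had 654, 133 and 11 genes at those levels. Of the 10 genes with the most reads in this tissue, 7 were among the 150, as were 14 of the top 20, 25 of the top 50 and 31 of the top 100. A read was found in every one of the 15 asymptomatic pyloric caecum libraries for 144 of the 150 genes. CPM values are not divided by gene length, so the order of genes by CPM is an order of read numbers.

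Reads were concentrated on g13155. It averaged 229839 ± 81897 CPM in asymptomatic pyloric caecum (SD, n = 15), with a lowest value of 102237 CPM in the large feeding animal, a median of 230663 CPM and a highest value of 383938 CPM in an x-large animal. This gene alone held 48.2% of the summed mean CPM of the 150 genes, the top 2 held 57.2%, the top 5 held 65.6% and the top 10 held 75.5%. The gene next in abundance, g5054, averaged 42925 ± 11770 CPM (lowest 27961, median 42728, highest 76279, n = 15). The third, g18995, averaged 15427 ± 7380 CPM (lowest 4844, median 14058, highest 34566), and the fourth, g5345, 12866 ± 4749 CPM (lowest 6876, highest 26681). The ranges of g18995 and g5345 overlapped, and g13155 was above g5054 in every library.

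The log2 ratio used for selection ran from 5.56 to 7.92, with a median of 6.50. The highest ratio was that of g320, at 2086 CPM in pyloric caecum, 7.63 CPM in dermis and 6.57 CPM in tube feet. The ratio of g5347 came next, at 7.69, with 11342 CPM in pyloric caecum, 54.1 CPM in dermis and 27.3 CPM in tube feet. At the edge of the list, g13299 was the last inside at 5.56, with 89.9, 0.933 and 0.576 CPM in pyloric caecum, dermis and tube feet. The first outside was g3600 at 5.55, with 95.03, 0.990 and 1.04 CPM in the same order of tissues, so the list ends within a continuous range of values.

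**Figure D1:**
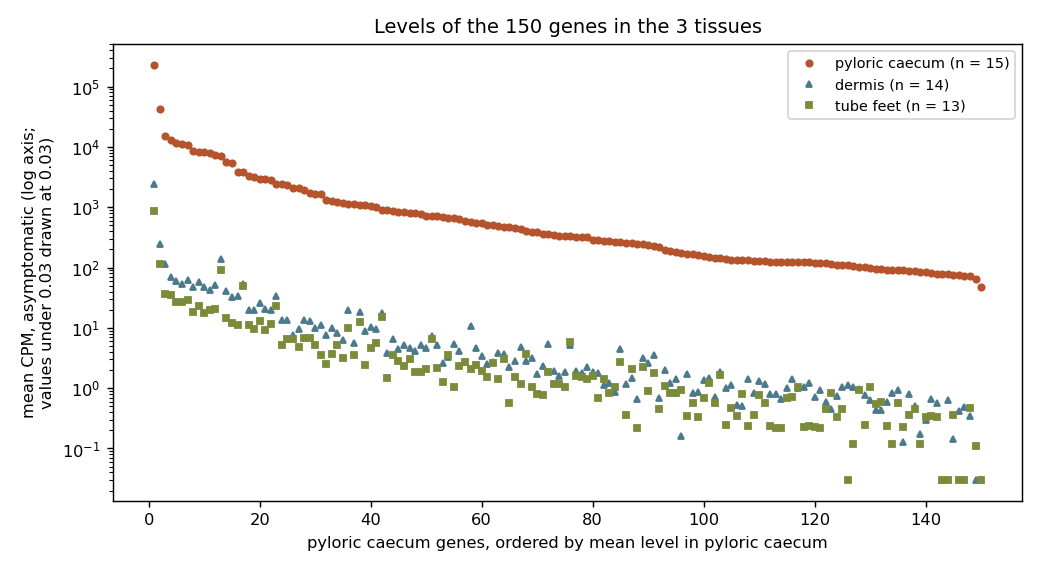
Mean CPM (log axis) of each of the 150 genes in asymptomatic pyloric caecum, dermis and tube feet, with genes ordered along the x axis by their pyloric caecum level. The pyloric caecum points fall from 229839 to 47.8 CPM, and the gap to the dermis and tube feet points below them is set by the selection rule.

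Most of the 150 genes had some reads in the other tissues. The selection ratio was bounded, so the rule itself ties the higher of the dermis and tube feet levels to the pyloric caecum level, and the values that follow only describe the list. No read was found in any asymptomatic dermis library for 3 genes, in any asymptomatic tube feet library for 6, and in either tissue for 2. Among the 41 genes with at least 1000 CPM in pyloric caecum, the asymptomatic dermis level was 0.366 to 1.92% of the pyloric caecum level (median 0.678%). The tube feet level was 0.198 to 1.33% (median 0.294%). Dermis was above tube feet in all 41 of these genes and in 130 of the 150.

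The 150 genes together held 43.9% of gene reads in the pyloric caecum of the large symptomatic animal and 58.8% in that of the medium symptomatic animal, against 33.9 to 57.3% (median 47.7%) in asymptomatic pyloric caecum. In dermis they held 0.585 and 0.581% in symptomatic animals, against 0.186 to 1.04% in asymptomatic animals. In tube feet they held 0.113% in the large and 0.554% in the medium symptomatic animal, against 0.0969 to 0.315% in asymptomatic animals. The tube feet library of the medium symptomatic animal thus lay above all asymptomatic ones. In that library g13155 alone held 0.476% of reads, against 0.0493 to 0.158% in asymptomatic tube feet, and the ratio of g13155 to the other 149 genes was 6.11, against 0.673 to 1.25. In the same animal that ratio was 2.57 in pyloric caecum and 3.33 in dermis.

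**Figure D2:**
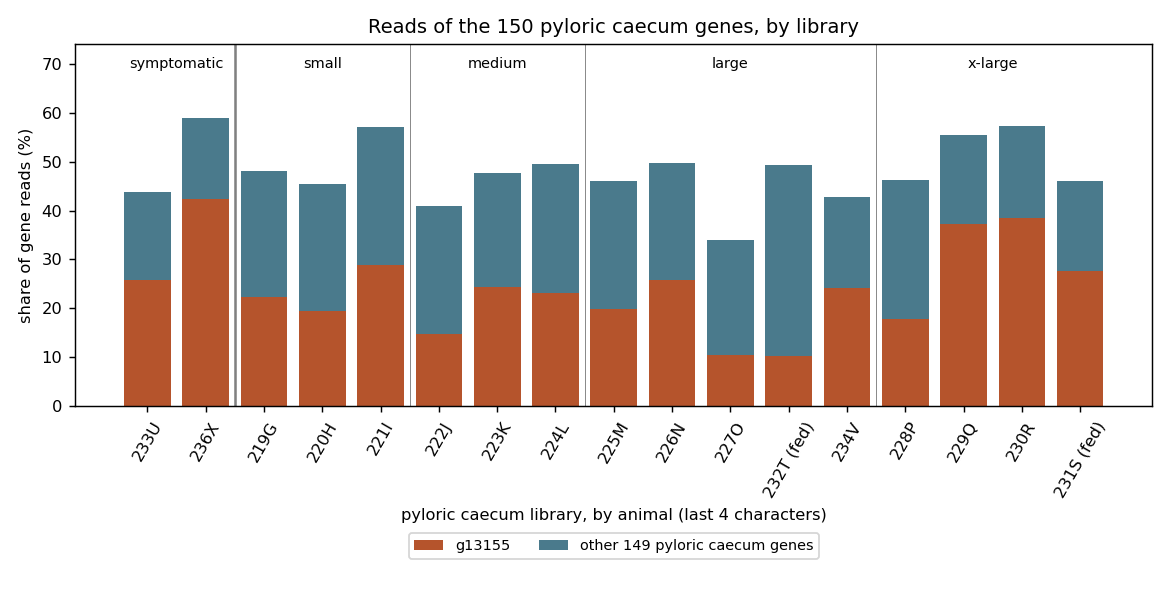
Share of gene reads (%) held by g13155 and by the other 149 genes in each of the 17 pyloric caecum libraries, with the 2 symptomatic animals on the left and the 15 asymptomatic animals by size class. Labels give the last 4 characters of the animal's ID, and "fed" marks the 2 animals that were feeding. The share of g13155 ran from 10.2 to 38.4% in asymptomatic animals and reached 42.3% in the medium symptomatic animal.

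Outside g13155, the other 149 genes held 18.0% (large) and 16.5% (medium) of reads in symptomatic pyloric caecum, against 18.2 to 39.0% in asymptomatic pyloric caecum. Both symptomatic libraries lay below every asymptomatic one by this measure, the nearest being the x-large feeding animal at 18.2%. With g13155 taken out of the total as well, the other 149 genes held 24.2 to 28.6% of the remaining reads in the symptomatic libraries and 24.5 to 43.5% in the asymptomatic ones, and the groups overlapped. A gene that takes this much of a library lowers the CPM of all others, so the tests below used TMM scaling, whose factors ran from 0.639 to 1.43 over the pyloric caecum libraries.

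The symptomatic libraries had no part in the choice of genes and give a separate reading of the tissue difference. Both symptomatic pyloric caecum libraries were above all 4 symptomatic dermis and tube feet libraries for 145 of the 150 genes, against 5.47% of all genes with a read there. In edgeR's quasi-likelihood test, 132 of the 150 genes were higher in pyloric caecum than in dermis at an adjusted p (Benjamini-Hochberg over all genes tested) under 0.01, where 3.37% of all tested genes were higher. Against tube feet the count was 140 of 150, where 4.18% of all tested genes were higher, and no member was lower in either contrast. The shares of all genes given here were not matched for level. The 1 gene that did not pass the filter of a mean of 1 CPM was g7145, which had no read in symptomatic pyloric caecum. The same 2 animals gave the 3 tissues. With the animal as a block the counts were 140 and 144, and the genes called higher among all 14791 tested were 876 in place of 499 against dermis and 883 in place of 619 against tube feet. Without the medium animal's dermis library the dermis count was 84, the lowest of the counts with 1 library left out.

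The tissue differences in symptomatic animals can be read from single genes. The gene g2961 had 220 and 184 CPM in symptomatic pyloric caecum, against no read in either symptomatic dermis library, and was at least 68.4-fold higher (3 reads over the dermis group taken as the floor; edgeR adjusted p = 1.5e-05). The gene g10680 had 548 and 309 CPM in symptomatic pyloric caecum, against no read in symptomatic tube feet, and was at least 199-fold higher (edgeR adjusted p = 3.6e-06). The gene g4901 had 2938 and 1897 CPM in symptomatic pyloric caecum, against 1.44 and 1.37 CPM, 2 reads in all, in symptomatic tube feet. The ratio was 1688, with a 95% counting interval of 467 to 13943.

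The study asked how wasting disease changes expression within each tissue. In symptomatic pyloric caecum, 15 of the 150 genes were lower than in asymptomatic pyloric caecum and 0 were higher (2 and 15 libraries). Among all 13205 genes tested, 0.507% were lower and 2.24% were higher, so calls among all genes were mostly in the other direction. The log2 fold change was negative for 126 of the 150 genes and positive for 24, with a median of -0.87, against a median of -0.15 over all genes tested. An unadjusted p under 0.05 was found for 63 genes (42%), against 20.1% of all tested genes. These shares are not matched for level, since the median level in pyloric caecum was 307 CPM for the 150 and 7.60 CPM for tested genes. Shares at an unadjusted p in the size and feeding comparisons below were not matched for level either. At the adjusted threshold DESeq2 called 33 of the 150 lower and 0 higher, and 179 lower and 319 higher among all 13205 genes. The genes were chosen for high values in the asymptomatic libraries that serve here as the comparison, which by itself favours lower values in other libraries.

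The genes called lower were not the most abundant of the list. The 15 averaged 71.3 to 1696 CPM in asymptomatic pyloric caecum, with a median of 121 CPM, and their log2 fold changes ran from -2.04 to -9.30. In all 15, both symptomatic libraries lay below every asymptomatic library in CPM without TMM scaling. Over the whole list that was so for 40 of the 150 genes, against 3.69% of all tested genes. A gene with no read in an asymptomatic library cannot lie below all of them. Most tested genes were of far lower level than the 150, so this share is not a like background. No member lay above every asymptomatic library in both symptomatic ones, against 3.31% of all tested genes. These positions were read in CPM without TMM scaling, which g13155 lowers for the other genes. That gene held 25.9 and 42.3% of reads in the symptomatic libraries, against 10.2 to 38.4% in asymptomatic ones. Such counts were not made with TMM scaling. Of the 20 most abundant of the 150, none passed the edgeR test, 18 had negative fold changes and the median was -0.39.

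The gene g7145 had no read in either symptomatic pyloric caecum library, against 7.27 to 180 CPM in asymptomatic ones (median 89.0, n = 15). The groups did not overlap, and it was at least 60.1-fold lower in symptomatic animals (3 reads over the symptomatic group as the floor; edgeR adjusted p = 0.0023). The call of g7145 was lost in 4 of 26 alternative fits, among them that with batch as a term. The gene g6092 had 4.27 CPM in the large and 2.71 CPM in the medium symptomatic animal, against 42.4 to 169 CPM in asymptomatic animals (median 81.4). Its log2 fold change was -4.49 ± 0.62 (SE; edgeR adjusted p = 3.2e-05), and it kept its call in all 26 alternative fits of the contrast. Within batch 2, g6092 had 4.27 CPM in the symptomatic animal and 99.5 CPM in the asymptomatic one. Within batch 5 it had 2.71 CPM in the symptomatic animal and averaged 103 CPM in the asymptomatic pair.

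The most abundant genes did not pass the test. The gene g13155 had 258953 CPM in the large and 423275 CPM in the medium symptomatic animal, against a median of 230663 CPM and a highest value of 383938 CPM in asymptomatic animals (log2 fold change 0.75 ± 0.51, edgeR adjusted p = 0.429). The gene g5054 had 44470 and 30234 CPM in symptomatic animals, both within the asymptomatic range of 27961 to 76279 CPM. The gene g18995 had 7588 and 7896 CPM in symptomatic animals, inside the lower end of the asymptomatic range (log2 fold change -0.87, edgeR adjusted p = 0.469).

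The count of 15 rested on having both symptomatic animals, and without either of them calls among all genes fell as well. Without the large animal the median log2 fold change of the 150 was -0.82 (all genes -0.20), and without the medium animal -1.29 (all genes -0.25). With McClures Beach animals only, which leaves 1 symptomatic animal, that median was -1.34 (all genes -0.25). The count was 1, g6092, with batch in the fit. With batch in the fit 98 of the 150 fold changes were negative and their median was -0.56, against -0.08 over all genes tested, of which 2 were lower and 25 higher. Read per animal, the median log2 difference of the 150 genes from the asymptomatic mean was -0.96 in the large symptomatic animal, with 122 genes below, and -0.60 in the medium one, with 111 genes below. The medians of all genes were 0.004 and 0.04. Over single asymptomatic libraries, the median of the 150 minus that of all genes had an SD of 0.31 and ran from -0.52 to 0.58. Within batches, with 1 symptomatic library each, the median log2 difference of the 150 genes was -0.90 in batch 2 (1 asymptomatic library, 121 of 150 negative) and -0.28 in batch 5 (2 asymptomatic libraries, 82 of 150 negative). For comparison, the 150 genes chosen in the same way for dermis had a median of -1.44 in the dermis contrast (all genes -0.18), with 6 lower. There 2.27% of all tested genes were called in either direction. Those chosen for tube feet had -0.15 in the tube feet contrast, with 0 called, where 0.112% of all tested genes were called.

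**Figure D3:**
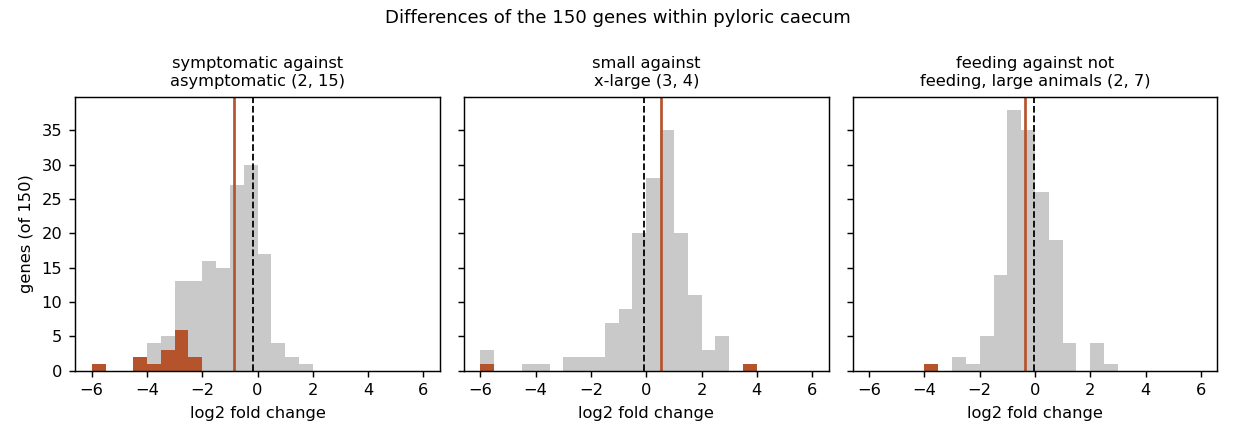
Histograms of the log2 fold change of the 150 genes within pyloric caecum for symptomatic against asymptomatic, small against x-large, and feeding against not feeding animals (numbers of libraries in brackets; values past 6 in size drawn at 6). Filled red parts mark genes with an edgeR adjusted p under 0.01 (15, 2 and 1 genes), the solid line the median of the 150 and the dashed line the median of all genes tested.

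In the other tissues of the symptomatic animals, 1 of the 150 genes passed the test in dermis and 0 passed in tube feet. In dermis, 106 of the 150 passed the filter and 1 was higher, where 2.27% of all tested genes were called in either direction. That gene, g2729, had 28.2 CPM in the large and 121 CPM in the medium symptomatic animal, against 7.46 to 37.0 CPM in asymptomatic dermis (log2 fold change 2.17 ± 0.43, edgeR adjusted p = 0.0014). The large animal's value lay within the asymptomatic range, and without the medium animal the log2 fold change was 0.58 (edgeR adjusted p = 0.640). In tube feet, 85 of the 150 passed the filter and edgeR called 0, where 0.112% of all tested genes were called. At an unadjusted p under 0.05 there were 3 such genes in edgeR's test, against 8.71% of all tested genes, and DESeq2 called 0 at the adjusted threshold. The gene g13155 had 533 CPM in the large and 4759 CPM in the medium symptomatic animal's tube feet, against 493.4 to 1581 CPM in asymptomatic ones (log2 fold change 1.60, edgeR adjusted p = 0.187), and without the large animal it passed (log2 fold change 2.44, edgeR adjusted p = 0.0067).

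The study also compared size classes, small against x-large and each class against the mean of the others, in the 15 asymptomatic animals. By the labels all small animals were orange, the large ones brown or purple, and the medium and x-large ones orange or brown. Size class therefore ran partly with colour, and a difference by colour was not tested. Set against x-large animals, small animals had a positive log2 fold change for 103 of the 150 genes, with a median of 0.52, while the median of all genes tested was -0.08. Single asymptomatic libraries ran from -0.52 to 0.58 in the median of the 150 minus that of all genes (SD 0.31). That range includes the small and x-large animals themselves and is of single libraries, so the shift cannot be judged against it. An unadjusted p under 0.05 was found for 56 genes (37.3%), against 11.1% of all tested genes. At the adjusted threshold only 1 gene was higher and 1 lower, where 0.295% of all tested genes were called. Small animals against the mean of the other classes gave a median of 0.44 (all genes -0.08), 60 genes (40%) with an unadjusted p under 0.05 against 10.1%, and 3 genes higher and 1 lower where 0.257% of all tested genes were called. With library sizes not scaled by TMM the median of all genes moved to -0.53 and that of the 150 to -0.01 in the same contrast, so the direction of the 150 is relative to the other genes.

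The gene g10681 was higher in small animals. It had 2639, 877 and 1088 CPM in the 3 small animals, against 65.9, 274, 70.3 and 48.0 CPM in the 4 x-large animals, and the groups did not overlap (log2 fold change 3.89 ± 0.73, edgeR adjusted p = 0.0085). Its mean by class was 1535, 1016, 309 and 115 CPM in small, medium, large and x-large animals. Within batch 4 it had 1088 CPM in the small animal and averaged 170 CPM in the x-large pair. The call of g10681 was lost in 11 of 23 alternative fits, with adjusted p up to 0.0602. The fit with batch as a term was among them, with 0 of the 150 called higher.

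The gene g18208 went the other way. It had 3.14, 0 and 0 CPM in the 3 small animals, against 670, 435, 387 and 160 CPM in the x-large animals. With 3 reads against 1466, the ratio of x-large to small was 357 (95% counting interval 122 to 1733), and the edgeR adjusted p was 0.0017. Its mean by class was 1.05, 24.7, 311 and 413 CPM in small, medium, large and x-large animals. X-large animals against the other classes gave a log2 fold change of 4.44 ± 0.60 (edgeR adjusted p = 6.4e-04), the only call among the 150 in that contrast, where 0.129% of all tested genes were called, and it was lost with batch in the fit (edgeR adjusted p = 0.0244). The groups of that contrast overlapped, with 160 to 670 CPM in x-large and 35.1 to 543 CPM in large animals. Over pooled reads g18208 had 401 CPM in x-large animals and 134 CPM in the other classes. The symptomatic animals had 110 CPM (large) and 0 CPM (medium), against 35.1 to 543 CPM in large and 5.52 to 60.3 CPM in medium asymptomatic animals.

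Of the genes called higher in small animals than in the other classes, g21634 had 1986, 2714 and 3435 CPM in small animals, against 168 to 1619 CPM in the other 12 (log2 fold change 2.69 ± 0.42, edgeR adjusted p = 0.0014). The gene with the adjacent ID, g21633, had 852, 736 and 1255 CPM in small animals, against 90.1 to 715 CPM in the others (2.31 ± 0.43, edgeR adjusted p = 0.0080). The call of g21633 was lost in 16 of 23 alternative fits, with adjusted p up to 0.199, and that of g21634 in 2 of 23, with adjusted p up to 0.044. The remaining gene, g1806, had 1933, 1615 and 2313 CPM in small animals, against 171 to 1582 CPM in the others (1.87 ± 0.34, edgeR adjusted p = 0.0070), and was named after its values were seen because so few genes passed. The call of g1806 was lost in 11 of 23 alternative fits, with adjusted p up to 0.169. Small animals lay above all other asymptomatic animals in each of the 3 genes. In the symptomatic animals g1806 had 1173 CPM (large) and 3273 CPM (medium), with the medium animal above every asymptomatic animal.

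Against the mean of the other classes, edgeR called 0 of the 150 in medium animals, where 0% of all tested genes were called, with 9 (6%) at an unadjusted p under 0.05 against 3.89% of all tested genes, and DESeq2 called 0. In large animals edgeR called 0, where again 0% were called, with 23 (15.3%) at an unadjusted p under 0.05 against 6.78%, and DESeq2 called 2.

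The size calls moved with single libraries. Without the large feeding animal, 11 genes were called in small against x-large (6 higher, 5 lower) and 11 in small against the other classes (9 higher, 2 lower). Calls among all 13179 genes of those fits were also more, at 31 higher and 37 lower for small against x-large and 48 higher and 13 lower for small against the other classes, than the 19 higher and 20 lower, and the 30 higher and 4 lower, of the fits with all libraries. Without any 1 of the 3 small animals small against x-large gave 0 calls. Calls among all genes were also few in those fits. They were 0 without M0D055219G, 3 higher and 0 lower without M0D055220H, and 4 higher and 1 lower without M0D055221I. For small against the other classes, leaving out the small animal of batch 4 (M0D055221I) also gave 0, and leaving out the others left 1 (M0D055219G) or 2 (M0D055220H). Counts of 5, 3 and 3 for small against x-large came without M0D055223K, M0D055222J and M0D055234V, and counts of 1 without M0D055230R or M0D055231S. For small against the other classes, a count of 2 came without each of M0D055222J, M0D055224L, M0D055225M and M0D055231S. In large animals, leaving out M0D055222J or M0D055232T gave 1 call in place of 0. In x-large animals the count was 2 without each of M0D055220H, M0D055222J, M0D055224L and M0D055225M.

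**Figure D4:**
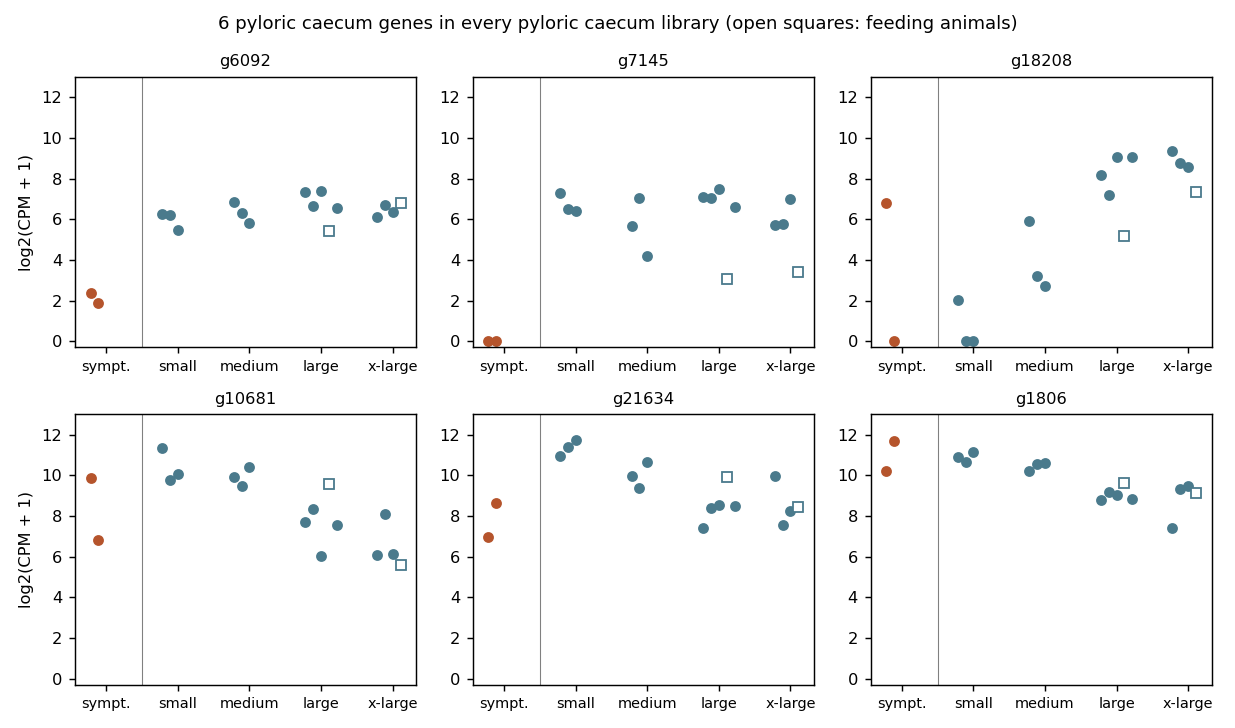
Level, as log2(CPM + 1), of 6 genes in every pyloric caecum library, with the symptomatic animals on the left and the asymptomatic animals by size class, and open squares for the 2 feeding animals. The genes g6092 and g7145 are lowest in the symptomatic animals, and among asymptomatic animals g18208 reaches its highest values in large and x-large animals and g10681, g21634 and g1806 theirs in small animals.

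Feeding status was compared within the large and x-large asymptomatic animals, since no small or medium animal was feeding (2 feeding, 7 not feeding). Both feeding animals were brown, and those not feeding were brown, orange or purple. Of the 150 genes, 96 had a negative and 54 a positive log2 fold change, and the median was -0.37, where that of all genes tested was -0.03. Over single asymptomatic pyloric caecum libraries, the median of the 150 minus that of all genes ran from -0.52 to 0.58. That range includes the feeding animals themselves and is of single libraries, so the shift cannot be judged against it. An unadjusted p under 0.05 was found for 28 genes (18.7%), against 7.97% of all tested genes. Only 1 gene, g7145, was called, and it was lower, where 0.0978% of all tested genes were called in either direction. It had 7.27 CPM in the large and 9.83 CPM in the x-large feeding animal, against 52.4 to 180 CPM (median 130) in animals not feeding (log2 fold change -3.77 ± 0.59, edgeR adjusted p = 0.0049). A medium animal that was not feeding and stood outside this comparison had 17.7 CPM. This call was lost in 9 of 16 alternative fits, with adjusted p of 0.0207 with batch in the fit and up to 0.419 without the large feeding animal. Without M0D055225M, M0D055231S or M0D055234V the count of calls was 0, and without M0D055230R it was 1 gene, higher.

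The 2 feeding animals were unlike each other. The other 149 genes held 39.0% of reads in the large feeding animal and 18.2% in the x-large one, against 18.3 to 28.3% in large and x-large animals not feeding, so the feeding animals were the highest and the lowest of the 15 by this measure. With g13155 taken out of the total, the large feeding animal was still the highest at 43.5%, the x-large feeding animal had 25.2%, and the lowest was M0D055234V, not feeding, at 24.5%. Of the 150 genes, 67 were below the not feeding mean in both feeding animals, 14 above it in both, and 69 were on different sides. Within batches, with 1 library of each kind, the median log2 difference was -0.80 in batch 1 and -0.21 in batch 5, and 92 of 150 were negative in each.

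Above a minimum level, the 150 genes had about the same median variation among asymptomatic animals as other genes. Where the mean reached 50 CPM, the median coefficient of variation over the 15 libraries was 0.462 for 149 of the 150 and 0.462 for 1070 other genes. The groups were not matched for level above that minimum, so variation at a like level was not compared. The steadiest were g4876, with 132 to 330 CPM, and g5743, with 73.1 to 200 CPM, each with a coefficient of 0.25. The most variable were g5025, with a coefficient of 1.77, 0 CPM in the lowest animal, a median of 117 CPM and 2011 CPM in the large feeding animal, and g5023, with 1.66, 1.38 CPM, 64.4 CPM and 843 CPM in the same places. In both, the highest value was that of the large feeding animal and the lowest that of the asymptomatic Lifeboat House animal.

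The level of g13155 and those of the other 149 genes were compared over the 15 asymptomatic pyloric caecum libraries. By Spearman rho of CPM, g5446 and g14549 were most like it, each at 0.43, and 103 of the 149 had a negative rho. A gene that takes 10.2 to 38.4% of reads lowers the CPM of others. With TMM-scaled CPM, g3153 (0.77) and g1236 (0.75) were most like it and 51 of the 149 had a negative rho. The likeness of other genes to g13155 therefore depended on the scaling.

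Many of the 150 genes had neighbouring ID numbers. An adjacent number was also in the list for 56 of the 150 (37.3%), in 17 runs of 2, 6 runs of 3 and 1 run of 4. Lists of 150 chosen in the same way held 26 such genes (17.3%) for dermis and 43 (28.7%) for tube feet. Pairs were compared by Spearman rho of TMM-scaled CPM over the 15 asymptomatic pyloric caecum libraries. The 32 adjacent pairs had a median rho of 0.49 (lowest -0.16, highest 0.98), and 46.9% were above 0.5. All 11175 pairs of the 150 had a median of 0.10, with 13.1% above 0.5. The pairs g21633 and g21634, and g19687 and g19688, each reached 0.98, and g5345 and g5346 reached 0.71. Whether adjacent numbers mean adjacent places in the genome is not stated, and near-identical copies could share reads, so levels of such pairs are uncertain.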

How the data were processed

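The authors deposited raw counts, 1 whole number per gene ID in each of 50 libraries, followed by summary lines that were dropped. Per the labels' protocols, extraction was by Qiagen RNeasy Mini Kit and library preparation by Illumina TruSeq RNA v2 kit. Per the submitters' processing notes, Trim Galore 0.4.4, TopHat2 2.0.13, SAMtools 0.1.19 and edgeR were used. The genome build, the annotation and the counter with its strandedness are not named in those sources. Reads that met no gene made up 71.0 to 78.8% of counted lines in asymptomatic pyloric caecum.

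Members and comparison lists were chosen with earlier results of these data known. Each comparison was fitted on all genes averaging 1 CPM or more over its libraries, by edgeR 4.0.16 (TMM, quasi-likelihood F-test, R 4.3.3), with Benjamini-Hochberg adjustment over all genes tested and a threshold of 0.01. Standard errors are the log2 fold change over the root of F. DESeq2 1.42.0, other filters and scalings, batch as a term, site and left-out libraries were alternatives. Symptomatic tissues were also fitted with the animal as a replicate block, since the labels give the same animal for the 3 tissues. A group at 0 was set to 3 reads over the group, and ratios with few reads have exact 95% intervals that cover counting error only.

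Per comparison, the rule named the 2 called genes with the largest change in each direction among those averaging at least 10 CPM in the higher group, first those whose groups did not overlap. For description it named the genes highest in level, in selection ratio and in variation.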

Additional observations from a re-analysis of the deposited data

Results flagged for a closer look

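Single libraries stood far from the others of their group in 7 of 51 cases examined. Each case was a gene or measure in a group of 4 to 10 samples. The cases share libraries and are not independent, so this number was not set against a rate under chance. The large feeding animal stood apart among large asymptomatic animals in g21633 (556 CPM) and g21634 (974 CPM). The x-large animal M0D055228P stood apart among x-large animals in g10680 (299.8 CPM) and in the share of reads held by the 149 genes other than g13155 (28.3%). The same animal stood apart among large and x-large animals not feeding in g21633 (391 CPM) and g21634 (1006 CPM), 2 genes that vary together. The x-large animal M0D055229Q stood apart in g10681 (274 CPM).

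The tube feet libraries of the Friday Harbor animal were outside the comparisons. In the symptomatic library the 150 genes held 0.183% of reads and g13155 0.0858%. In the asymptomatic library the 150 genes held 0.405% of reads and g13155 alone 0.341%, both above all asymptomatic tube feet libraries of Point Reyes.

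For g4901, the symptomatic mean was 0.753 of the asymptomatic mean in pyloric caecum and 1.18 of it in dermis, on opposite sides of equality, and this difference was not tested.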

How the results depend on the processing

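The count of genes lower in symptomatic pyloric caecum was 15. It was 33 with DESeq2, 9 with medium and large animals only, 1 with batch as a term and 1 with McClures Beach animals only. With 1 library left out it ran from 1 to 17. For small against x-large (2) it was 21 with DESeq2, 16 with no filter on low counts, 1 with edgeR's own filter, 6 without TMM and 4 with animals not feeding, and 0 to 11 with 1 library left out. For small against the other classes (4) it was 19 with DESeq2, 17 with no filter, 1 without TMM and 8 with animals not feeding, and 0 to 11. For large animals (0) it was 2 with DESeq2, 2 with no filter and 1 with animals not feeding, and 0 to 1. For x-large animals (1) it was 5 with DESeq2, 9 with no filter and 0 with batch as a term, and 1 to 2. For feeding (1) it was 3 with DESeq2, 4 with no filter, 0 with edgeR's own filter, 0 without TMM, 0 with batch as a term, 0 with all 15 asymptomatic libraries, and 0 to 1. Calls among all genes changed as well. Genes lower in disease among all tested were 179 with DESeq2, 45 with medium and large animals only and 2 with batch as a term, in place of 67. For small against x-large, all genes gave 69 higher and 81 lower with no filter, in place of 19 and 20. The cause of these changes was not tested. With the animal as a replicate block, the symptomatic tissue counts of 132 and 140 were 140 and 144, and left-out libraries gave 84 to 135 and 120 to 140. Counts in dermis and tube feet ran from 0 to 1. No gene called by disease, size or feeding changed direction in any alternative run, and neither did the genes named in the symptomatic tissue contrasts. The median of the 150 genes minus that of all genes for disease was -1.09 with McClures Beach animals only, -1.03 without the medium symptomatic animal and -0.47 with batch as a term, in place of -0.72 with all libraries and no such term.

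The list itself kept 112 of its 150 genes with 0.1 CPM added in place of 1, where g13155 dropped out, 124 with 10 CPM, 134 with medians, 148 with g13155 left out of library sizes (chosen after seeing the data), and 144 to 149 with 1 animal left out. With 2 symptomatic and 2 feeding animals, the number of animals limits these comparisons, and reads at 0 to 3 limit g7145 and g18208.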
